A study of Mus musculus with 36 samples.

Results

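Of the 2247 PAX6 peaks called in mouse EPCs, 759 lay between genes and 10 to 100 kb from a transcript start, a share of 33.8% (95% Wilson interval 31.9 to 35.8). A peak was counted here when its centre fell outside the body of every protein-coding gene of GENCODE M1 on mm9 and was more than 10 kb, but at most 100 kb, from the nearest annotated start of a gene of any type. Pool 1 contributed 169 of its 491 peaks, pool 2 contributed 352 of 1032 and pool 3 contributed 238 of 724. The same rule applied to the peaks of the IgG control kept 344 of 1007, which were used as the background measured in the same way.

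The chromatin came from enteric precursor cells (EPCs), the neural crest-derived stem cells of the gut, which were taken from ganglionic gut of CD1 mice at P7 and grown as neurosphere-like bodies in a medium with human serum, basic fibroblast growth factor, epidermal growth factor and GDNF. All libraries shared this strain, age, tissue and culture, and no allele or treatment separated them. PAX6 was immunoprecipitated in 16 libraries (pool 1 with 4, pools 2 and 3 with 6 each), each pool had as many input libraries, and the 4 mouse IgG libraries were labelled as pool 1 only. The labels do not give how many animals stood behind a library, and no expression was measured in them, so the cell type label was not checked against marker genes.

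PAX6 is a transcription factor with a paired domain and a homeodomain, each of which can bind DNA, and it is best known as a regulator of eye, brain and pancreas development. Regions between genes at such distances from promoters are where enhancers are often found, which act on genes through looping of the chromatin, and the nearest gene need not be the one that is regulated. In the gut, the endothelin 3 and EDNRB pathway and the GDNF and RET pathway guide the migration and survival of enteric precursors, and loss of either is a known cause of Hirschsprung disease (HSCR).

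Most members matched motifs rich in CA or its complement TG, with or without a long uninterrupted run. The 2 sequences below were read from mm9 on the plus strand, and a peak of each of 2 pools covered the bases. Of the 10 such regions, 5 held a CA or TG run of at least 20 bp. The 2 sequences were picked by hand from the regions without one. They come from chr2:174541619-174541718 upstream of Edn3 and the central 300 bases of the shared part near Gm9376, chr14:118680925-118681224. Capitals mark the best match, among the printed bases, to the 14-base motif that the study derived from its binding regions.
Edn3: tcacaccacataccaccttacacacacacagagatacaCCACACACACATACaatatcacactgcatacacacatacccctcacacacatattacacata
Gm9376: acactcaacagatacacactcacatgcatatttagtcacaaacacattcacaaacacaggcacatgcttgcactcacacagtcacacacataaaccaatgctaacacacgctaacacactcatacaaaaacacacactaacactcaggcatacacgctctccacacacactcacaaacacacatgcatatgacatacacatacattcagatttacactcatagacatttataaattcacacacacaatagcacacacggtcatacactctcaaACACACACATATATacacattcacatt

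The members with the highest score of each pool differed in sequence. The score is the authors' value, 10 times the negative log10 of the p-value of MACS, and since it depends on depth it was ranked within a peak list only. In pool 1 the member with the highest score (108.8) was near the lincRNA Gm17529 and held neither a CA or TG repeat nor a study motif. In pool 2 it was near Gm11029 (score 336.57) and held an uninterrupted AAC repeat of 71 bp. In pool 3 it was at chr9:35112647-35113329 near Gm5614 (score 1096.32), with a CA or TG repeat of 38 bp, study motif 1 with 0 mismatches and study motif 2 with 1. The central 300 bases of that member are printed with no capitals, since its CA or TG repeat lay outside them.
Gm5614: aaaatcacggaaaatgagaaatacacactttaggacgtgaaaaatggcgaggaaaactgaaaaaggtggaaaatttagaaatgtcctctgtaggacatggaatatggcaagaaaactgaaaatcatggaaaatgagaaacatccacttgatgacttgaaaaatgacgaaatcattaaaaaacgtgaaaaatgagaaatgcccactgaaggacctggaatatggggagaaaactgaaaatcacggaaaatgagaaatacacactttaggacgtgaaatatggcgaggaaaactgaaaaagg

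The share of the class was nearly the same in every peak list. It was 34.4% in pool 1, 34.1% in pool 2 and 32.9% in pool 3 (mean 33.8% ± 0.818, SD, n = 3 pools), and 34.2% in IgG (Wilson interval 31.3 to 37.1). Bases that met the same rule made up 30.8% of chromosomes 1 to 19 and X. The interval of the 759 members (31.9 to 35.8) and that of IgG both started above this level, whereas the intervals of pool 1 (30.4 to 38.7) and pool 3 (29.5 to 36.4) included it. Intervals cover counting error only, because the authors merged the libraries of a pool before peaks were called and the spread between libraries is unknown.

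**Figure D1:**
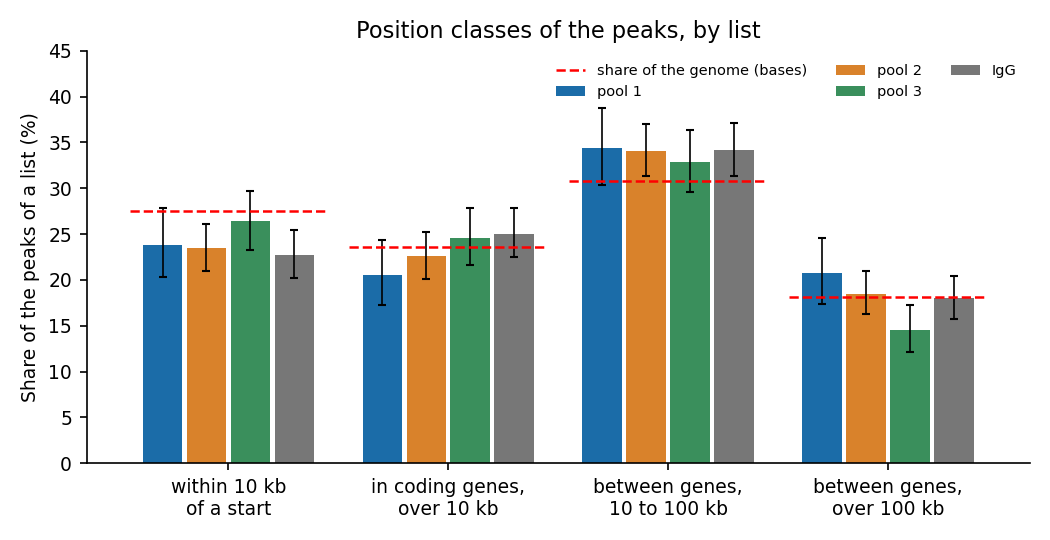
Share of the peaks of each list (percent, vertical axis) in 4 position classes relative to the nearest transcript start, with bars for pools 1 to 3 and IgG, 95% Wilson intervals and a dashed line at the share of the bases of chromosomes 1 to 19 and X in that class. Peaks between genes at 10 to 100 kb took 32.9 to 34.4% of every list, against 30.8% of the bases.

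Within the class, the members were spread over the distances much as the available sequence was. A start was 10 to 20 kb away for 25.8% of the members, 20 to 50 kb away for 42.4% and 50 to 100 kb away for 31.8%, where the bases of the class were at 25.3, 41.3 and 33.4%. Members of pools 1, 2 and 3 lay at median distances of 32.6, 36.2 and 30.4 kb, and the IgG peaks of the class at 34.8 kb. The centre was upstream of the nearest start in 57.4% of the members (436 of 759) and in 54.4% of the IgG peaks of the class, and the nearest start belonged to a protein-coding gene in 53.1% and to a small RNA in 23.7%. In pool 1, the members nearest to the limits were those near 4930548K13Rik (10.134 kb from its start) and Gm8882 (99.6955 kb), while the peaks near Gm14322 (9.937 kb) and Clec14a (108.261 kb) were just outside. In pool 2, Slu7 (10.177 kb) and Gm2824 (98.965 kb) stood inside, and Gm11019 (9.9645 kb) and Slc16a7 (100.241 kb) outside. In pool 3, Aim1 (10.1295 kb) and Il20rb (99.496 kb) stood inside, and Lpcat1 (9.9065 kb) and Lifr (100.066 kb) outside.

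The scores of the members covered the range of the rest of each list. In pool 1 the members scored 50.12 to 108.8 with a median of 62.44, and the other peaks had a median of 61.585. In pool 2 they scored 50.22 to 336.57 with a median of 68.98, the same as that of the other peaks, and in pool 3 50.32 to 1096.32 with a median of 106.95 against 103.44. Members of pool 1 had a median width of 477 bp, those of pools 2 and 3 had 422 and 379 bp, and the IgG peaks of the class had 435.5 bp. No peak of any list scored below 50.04, so weaker signals are not seen here.

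Uninterrupted CA or TG repeats were found in 421 of the 759 members (55.5%). A run of at least 20 bp was found in 77 of 169 members of pool 1 (45.6%), 198 of 352 of pool 2 (56.2%) and 146 of 238 of pool 3 (61.3%). Of the 1847404 windows of 426 bp, the median width of the members, whose centre met the same rule, 4.16% held such a run. All pools were far above this level, and so was IgG, in which 215 of 344 peaks of the class (62.5%) held one. The centre of the repeat was within 100 bp of the peak centre in 254 of 421 members with a repeat (60.3%) and in 59.5% of the corresponding IgG peaks, and the share that random placement within a peak would give was not computed.

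The motifs that the study derived from its binding regions, which are themselves rich in CA or TG, followed the repeat. The 30-base motif (study motif 1, up to 6 mismatches, both strands) was matched in 62.1% of the members of pool 1, 73.6% of pool 2 and 84.5% of pool 3, and the 14-base motif (study motif 2, up to 2 mismatches) in 66.3, 74.4 and 85.3%. In IgG the shares were 86.6 and 88.1%, above those of each pool, and in the windows of the genome they were 6.88 and 10.0%. The means of the pools minus IgG were -13.2 points for motif 1, -12.7 points for motif 2 and -8.11 points for the repeat. The exact permutation test over the 4 lists (two-sided) gave p = 0.5 for each, and with 3 lists against 1 it cannot give less than 0.25. Since the motifs came from regions of these pools, some of them members, their share in the pools is not independent evidence.

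Members were compared with the other peaks of the same list for motifs, repeats and overlaps in 18 comparisons. None, 0 of 18, passed Fisher's exact test (two-sided, Benjamini-Hochberg adjusted over the 18), and 1 of 18 had an unadjusted p under 0.05. That was motif 1 in pool 1, in 62.1% of the members against 72.2% of the other peaks, a difference of -10.1 points (Fisher's exact p = 0.0244, adjusted p = 0.439). In pools 2 and 3 the members stood 2.26 and 5.34 points above the other peaks, with adjusted p = 0.758 and 0.489 by the same Fisher's exact test. Peaks were the units of these tests, so the p-values do not hold the spread between libraries.

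**Figure D2:**
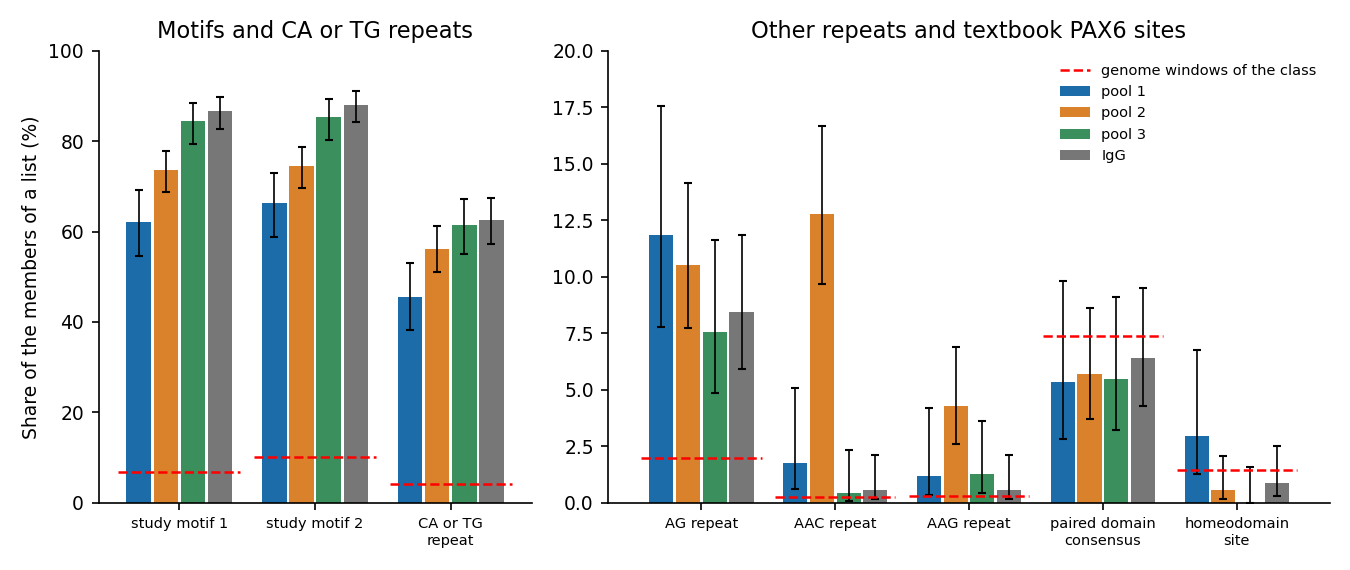
Share of the members of each list (percent, vertical axis, with different ranges in the panels) that held study motifs and CA or TG repeats (left) or other tandem repeats and textbook PAX6 sites (right), with 95% Wilson intervals. Dashed lines give the share of 426-bp genome windows of the class, and the AAC repeat stood at 12.8% in pool 2 against at most 1.78% in the other lists.

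A different repeat set pool 2 apart. Tandem repeats of every unit of 1 to 6 bases were counted after the data were seen, and a run of AAC (or GTT on the other strand) of at least 20 bp was present in 45 of the 352 members of pool 2 (12.8%, Wilson interval 9.69 to 16.7). It was present in 3 of 169 members of pool 1 (1.78%), in 1 of 238 of pool 3 (0.420%) and in 2 of 344 IgG peaks of the class (0.581%). The interval of pool 2 lay above those of pool 1 (0.606 to 5.09), pool 3 (0.0742 to 2.34) and IgG (0.160 to 2.09), and genome windows of the class held such a run in 0.272%. The other peaks of pool 2 had it in a similar share, 74 of 666 (11.1%). Since the 6 libraries of pool 2 were merged, libraries that may have carried the repeat cannot be told apart.

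The AAC members held the highest scores among the members of pool 2. Their median score was 115.84, against 68.98 for the members without the repeat. All of the 10 members with the highest scores, 17 of the highest 20 and 28 of the highest 50 held it. The lowest score among the 20, 132.45, was also that of AAC members left outside them, so the count of 17 depends on the order of ties. At a score of at least 100, 24 of 36 members of pool 2 held it (66.7%), and at 70 or more 36 of 156 (23.1%). The run was 20 to 77 bp long, with a median of 49 bp, its centre was at a median of 14.5 bp from the peak centre, and the 45 members were on 18 chromosomes. In 1 of the 45 a CA or TG repeat was also present, and that was the member upstream of Pax6. In pools 1 and 3, none of the 50 highest scores of the class belonged to a peak with an AAC repeat. In IgG, 1 AAC peak (near 7SK, 82.57) tied with the lowest of the 50 highest scores, and none stood above it. The score pattern was not particular to the class. Among the other peaks of pool 2, those with an AAC repeat had a median score of 107.88, against 68.7 without it, and reached 509.09.

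**Figure D3:**
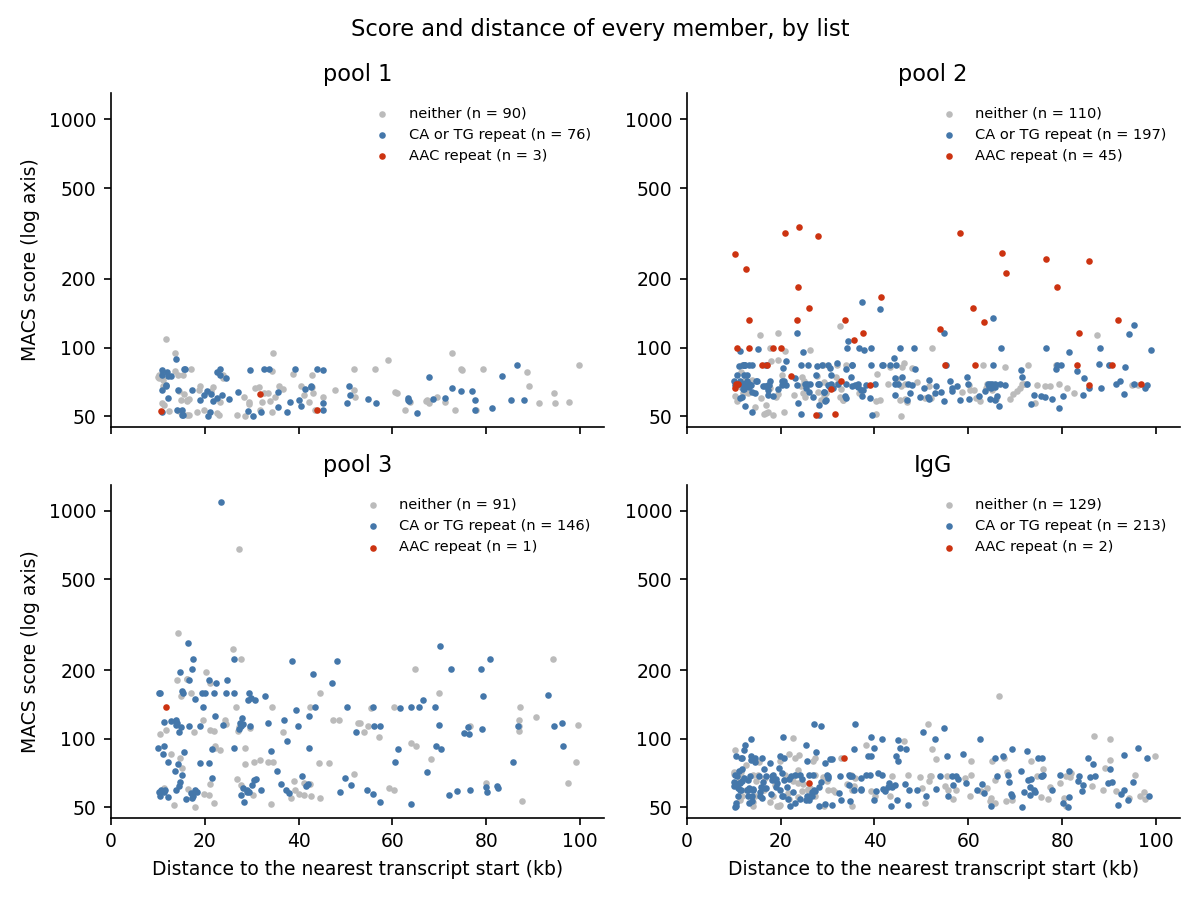
MACS score of every member (log axis) against the distance to the nearest transcript start in kb, 1 panel per list, with members that hold an AAC repeat, a CA or TG repeat or neither in different colours. In pool 2 the 10 highest points were AAC members, at distances from 10.4 to 85.6 kb, and in the other lists the AAC members were 1 to 3 per panel.

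The 5 members with the highest scores of pool 2 lay near Gm11029 (336.57), the processed transcript RP23-76I20.1 (318.04), the rRNA gene n-R5s155 (316.75), Parp8, of the family of ADP-ribosyltransferases (306.97), and the RNA helicase gene Dhx35 (258.59). The repeat took 71, 77, 72, 40 and 41 bp of them, with its centre at most 23 bp from that of the peak. For 3 of them, 160 bases around the centre of the members near RP23-76I20.1 (chr16:50841769-50841928), n-R5s155 (chr7:97463173-97463332) and Parp8 (chr13:117842298-117842457) show the AAC or TTG run in capitals, on the plus strand of mm9. The flanking bases differed, except that the Parp8 run was joined to an AAG repeat of 76 bp.
RP23-76I20.1: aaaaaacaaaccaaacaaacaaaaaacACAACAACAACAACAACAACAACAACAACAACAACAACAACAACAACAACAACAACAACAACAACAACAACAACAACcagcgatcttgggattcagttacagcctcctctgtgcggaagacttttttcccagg
n-R5s155: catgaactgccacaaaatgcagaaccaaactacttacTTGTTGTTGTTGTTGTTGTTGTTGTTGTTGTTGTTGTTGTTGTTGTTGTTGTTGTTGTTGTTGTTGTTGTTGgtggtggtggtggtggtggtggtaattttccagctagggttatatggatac
Parp8: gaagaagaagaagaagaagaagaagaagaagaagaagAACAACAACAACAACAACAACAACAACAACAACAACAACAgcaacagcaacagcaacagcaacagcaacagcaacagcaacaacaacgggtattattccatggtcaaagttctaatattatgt

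The AAG repeat was also commonest in pool 2, in 15 of 352 members (4.26%), against 2 of 169 in pool 1 (1.18%), 3 of 238 in pool 3 (1.26%) and 2 of 344 in IgG (0.581%). The interval of pool 2 (2.60 to 6.91%) overlapped those of pools 1 and 3. The AG repeat, in 11.8, 10.5 and 7.56% of the members of pools 1, 2 and 3, was at 8.43% in IgG and 2.00% in the windows. Members with no tandem repeat of any unit and no study motif were 20.1% in pool 1, 5.40% in pool 2 and 6.72% in pool 3, with 6.40% in IgG.

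In pool 3 the members with the highest scores mostly held a CA or TG repeat or a study motif. Of the highest 10, 20 and 50, the repeat was in 6, 13 and 35, and a study motif was in 7, 16 and 43. In the Gm5614 member (1096.32) bases 234 apart were identical at 48.3% of 449 compared positions, the highest share among the lags compared. This share was taken over the whole peak. In the bases printed above, the opening stretch of Gm5614 recurs almost unchanged at the end, 234 bases later. Other members with high scores reached higher shares at lags of their own, such as Gm17529 (62.7% at 30 bases) and Pigm (57.1% at 168 bases). Those whole-peak shares do not rank how exact a repeat is within part of a peak. The member near Gm9075 (676.47), at chr12:3109720-3110265 and with no protein-coding gene between it and the start of the assembled chromosome, shared 250 of its 1054 20-base words, both strands counted, with the Gm5614 member (23.7%). The third score was that of the member near the miRNA gene AC141876.1 (291.54), which held an AATGG repeat of 63 bp, a unit found in 4 members of pool 3, in 1 of pool 1 and in 2 of IgG. Next were the members near Pigm (263.45), which encodes a mannosyltransferase of GPI anchor synthesis, and 70.2 kb upstream of Ednrb (255.85), both with a CA or TG repeat.

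In pool 1 no AAC repeat was present among the 50 members with the highest scores. After Gm17529 (108.8), they lay near the ubiquitin ligase gene Pja2 (94.62), the mitochondrial ribosomal protein gene Mrps33 (94.62) and A630050E04Rik (94.43). The Mrps33 member held neither a study motif nor a CA or TG repeat. In IgG, the highest of the class was near Actrt2 (153.51), followed by peaks near a U6 gene, Slc7a13 and Gm12962 (115.5 each) and the kinase gene Cdc7 (113.83).

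Textbook PAX6 sites were rare in the members. The core of the paired domain site, TTCACGC on either strand with no mismatch, was found in 4 members (0.527%, Wilson interval 0.205 to 1.35) and in 0.621% of the windows. By pool these were 3 of 169 members of pool 1 (1.78%, interval 0.606 to 5.09), 1 of 352 of pool 2 (0.284%) and 0 of 238 of pool 3. The 13-base paired domain consensus with up to 2 mismatches was in 5.53% of the members, 6.40% of the IgG peaks and 7.37% of the windows. The homeodomain site, TAAT and ATTA separated by 3 bases, was in 7 members (5 of pool 1, 2 of pool 2 and 0 of 238 of pool 3), or 0.922% against 1.47% of the windows. In pool 1 alone it was in 2.96% of the members (interval 1.27 to 6.74), a range that included the level of the windows. No match says only that these letters were not in the peak.

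The members with the core lay upstream of P4ha1, a subunit of the collagen prolyl hydroxylase (pool 1, score 80.89), Med4, a subunit of Mediator (pool 1, 53.4), the pseudogene Gm8775 (pool 1, 76.11) and the phosphatase gene Ctdsp2 (pool 2, 65.19). They were named after their values were seen. The core is in capitals in the 55 bases around it, on the plus strand of mm9, at chr10:58753433-58753487, chr14:73864400-73864454, chr3:4168853-4168907 and chr10:126378407-126378461. The members of P4ha1, Med4 and Ctdsp2 held CA or TG repeats of 31, 27 and 25 bp as well, the Med4 member overlapped an IgG peak, and every 50-base word of the Gm8775 member was found at more than 1 place in mm9.
P4ha1: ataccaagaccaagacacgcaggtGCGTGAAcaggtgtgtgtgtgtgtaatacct
Med4: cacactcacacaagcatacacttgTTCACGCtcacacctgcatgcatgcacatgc
Gm8775: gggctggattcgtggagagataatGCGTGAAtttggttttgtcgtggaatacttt
Ctdsp2: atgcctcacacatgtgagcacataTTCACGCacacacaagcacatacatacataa

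Few members were shared between pools. A peak of another pool was overlapped by at least 1 bp by 21 of the 759 members (2.77%), 4 in pool 1, 7 in pool 2 and 10 in pool 3, and over all placed PAX6 peaks the share was 2.57%. An IgG peak was overlapped by 26 members (3.43%), against 3.7% of all placed PAX6 peaks. These were 12 of pool 1 (7.10%), 4 of pool 2 (1.14%) and 10 of pool 3 (4.20%), and the IgG libraries carried the label of pool 1. Both shares stood near the background of all peaks, and no difference between members and other peaks of a pool passed the test (Fisher's exact test, lowest adjusted p = 0.758).

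The 21 shared members formed 10 regions, 6 of pools 2 and 3, 3 of pools 1 and 3 and 1 of pools 1 and 2, and none of all 3 pools. They were 10 of the 28 regions that all PAX6 peaks shared. Without pool 1 there were 6, without pool 2 there were 3 and without pool 3 there was 1, and at a score of at least 100 in every list there were 0. An IgG peak (score 77.93) covered 1 of the 10, that near Habp4, and in 5 a run of CA or TG reached 20 bp.

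**Figure D4:**
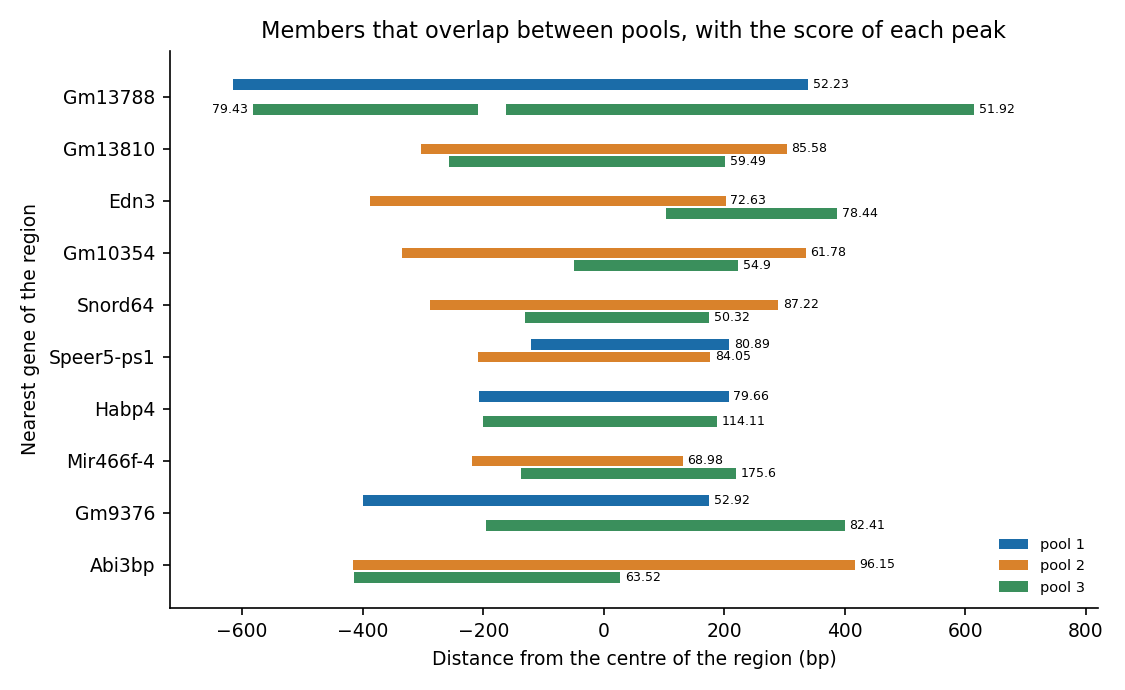
Members that overlapped between pools, drawn to scale as bars along the distance in bp from the centre of each region (horizontal axis), by nearest gene, with the score of each peak beside its bar. Pools 2 and 3 met in 6 regions, pools 1 and 3 in 3 and pools 1 and 2 in 1, and the Edn3 peaks overlapped only at their ends.

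The region upstream of Edn3, which encodes the ligand of EDNRB, was among those with no repeated word. Its peak in pool 2 (chr2:174541129-174541718) had a score of 72.63 and that in pool 3 (chr2:174541619-174541903) 78.44, ranks 413 of 1032 and 481 of 724. They lay 44.7 and 44.4 kb upstream of the start and overlapped by 100 bp, which is 16.9% of the peak of pool 2 and 35.1% of that of pool 3. Both study motifs matched in the 775 bp that both peaks span together, the 14-base motif without a mismatch. That match was not within the shared bases, where the best match, in capitals above, was imperfect. The longest CA or TG run of the region was 11 bp, and no IgG peak overlapped the region. Edn3 was among the genes selected by the study on these pools, so its presence here is not independent evidence.

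The Speer5-ps1 and Abi3bp regions were also among those of the study's genes. Near the pseudogene Speer5-ps1, the peaks of pool 1 (80.89) and pool 2 (84.05) shared 298 bp with a CA or TG repeat of 46 bp. They lay 39.2 kb upstream of its GENCODE M1 start and 96.1 kb from the start of Atg5, a gene of autophagy. The study, with another annotation, placed the same peaks within 10 kb of a start of Speer5-ps1. By that start they would not be members. Upstream of Abi3bp, a gene of the extracellular matrix, the peaks of pool 2 (96.15) and pool 3 (63.52) shared 442 bp at 20.9 and 21.1 kb from the start. No CA or TG run there exceeded 6 bp, although motif 1 matched with 1 mismatch, and 40.8 and 27.0% of the 50-base words of the peaks were repeated in mm9.

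The other regions lay in sequence of mixed uniqueness. Near Gm9376 the peaks of pool 1 (52.92) and pool 3 (82.41) had no repeated 50-base word and shared 371 bp. Near Gm13810 every word of the peaks of pool 2 (85.58) and pool 3 (59.49) was repeated, with the flanking protein-coding genes Gm10800 and B230118H07Rik 1929 and 965 kb away. Near Mir466f-4, between 8030423J24Rik and the homeobox gene Irx1, the score was 68.98 in pool 2 and 175.6 in pool 3.

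Near Habp4 it was 79.66 in pool 1 and 114.11 in pool 3, over the IgG peak, between Habp4 and Cdc14b. Near Snord64, a small nucleolar RNA gene, it was 87.22 in pool 2 and 50.32 in pool 3, in a region 21.6 kb from the Snrpn gene with an AAG repeat of 101 bp. Near Gm10354 it was 61.78 in pool 2 and 54.9 in pool 3, and near Gm13788, between Api5 and Lrrc4c, 1 peak of pool 1 (52.23) overlapped 2 of pool 3 (79.43 and 51.92). Of the 10 regions, only those near Mir466f-4 and Habp4 held a peak over 100, in both cases that of pool 3.

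More genes were nearest to members of different pools at separate places than at shared ones. The 759 members had 715 nearest genes, 29 of which were nearest to members of at least 2 pools. Of these, 13 were protein-coding and 4 were also nearest to an IgG peak of the class. As a reference level, 49 of the 715 genes were also nearest to an IgG peak of the class, out of 332 such IgG genes. Pools 1, 2 and 3 had 169, 345 and 232 nearest genes. Recurrence between pools was thus not more frequent in number than recurrence with the control. Ednrb and the pseudogene Gm7099 had a member of every pool. At Gm7099 the members stood 50.8 kb (pool 1, 67.66), 56.6 kb (pool 2, 66.48) and 14.3 kb (pool 3, 77.64) downstream, and each held a CA or TG repeat.

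Ednrb encodes the receptor of endothelin 3. Its member of pool 1 was 20.6 kb upstream (chr14:104263784-104264171, score 64.47), that of pool 2 13.3 kb upstream (chr14:104256458-104256885, 67.28) and that of pool 3 70.2 kb upstream (chr14:104313346-104313853, 255.85, rank 12 of 724). They did not overlap, spanned 57.4 kb between Ednrb and Pou4f1, and held CA or TG repeats of 23, 22 and 35 bp. No IgG peak of the class had Ednrb as its nearest gene. In 160 bases of the pool 3 member, chr14:104313660-104313819 on the plus strand, the repeat is in capitals.
Ednrb: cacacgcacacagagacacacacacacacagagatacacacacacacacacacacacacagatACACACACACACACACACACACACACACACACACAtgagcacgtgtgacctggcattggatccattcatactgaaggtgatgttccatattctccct

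Further genes with members of 2 pools included Wnt7b, a Wnt ligand (pool 2, 15.5 kb upstream, 113.62, and pool 3, 52.7 kb upstream, 116.86), Dlgap1, a scaffold protein of synapses (pool 2, 84.05, and pool 3, 114.11, 32.0 and 40.0 kb upstream), and Agap1, a GTPase-activating protein (pool 2, 82.26, and pool 3, 138.11). The Agap1 members came within the same 1.18 kb, 43.3 and 42.5 kb upstream of the start. The microRNA gene Mir153 had members of pool 1 (57.71) and pool 2 (115.84), and the kinase gene Sik1 had members of pool 1 (71.9) and pool 3 (108.35) on either side of its start. The others were AC141876.1, AC159639.1, Gm10330, Gm11680, Gm13674, Gm16913, Gm9343, n-R5s175, a copy of U6 and 2 copies of U7, beside the genes of shared regions and Cryaa.

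Genes of 7 groups were looked up around the members, and 18 had a start within 100 kb of at least 1. Over all 22350 protein-coding genes that share was 5.15%, and 2.36% for the IgG peaks of the class. Genes differ in how much sequence of the class surrounds them. Protein-coding genes with a member had a median of 82.6 kb of it within 100 kb of their starts and those without had 38.6 kb, and the part of this in the counts was not tested.

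**Figure D5:**
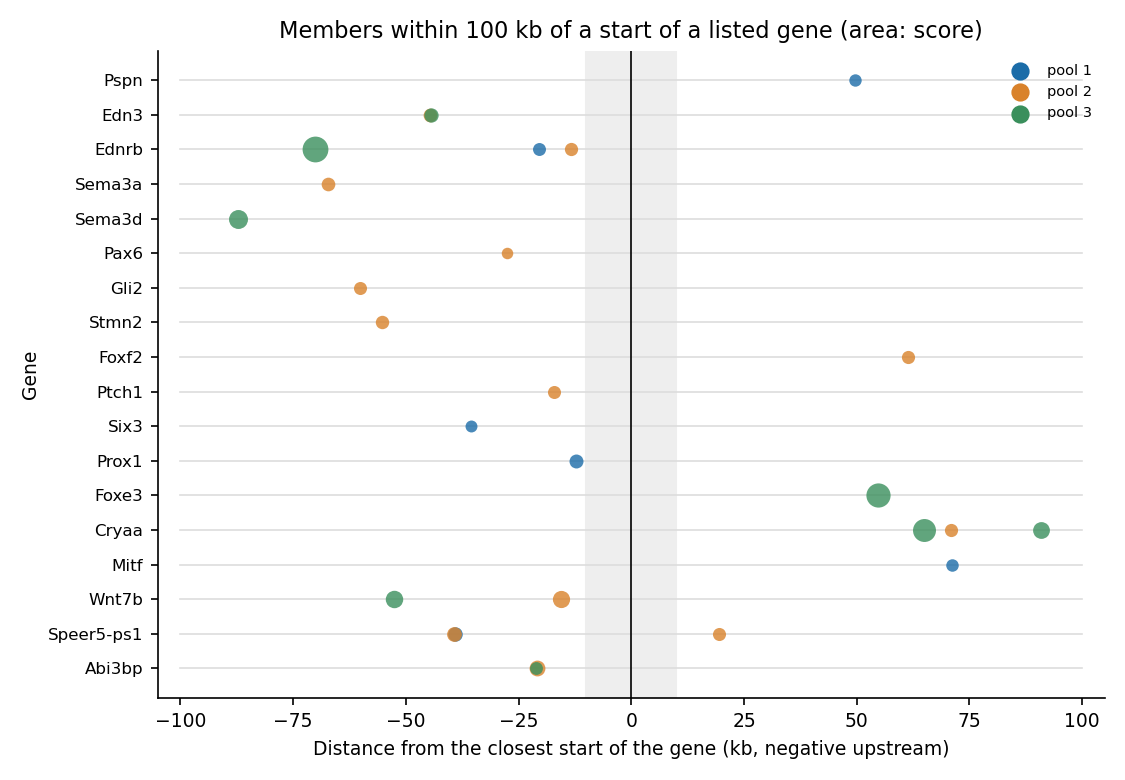
Members within 100 kb of a start of a listed gene, by signed distance from the closest start of that gene in kb (negative upstream), coloured by pool, with the area of a point proportional to its score. The grey band marks the 10 kb on either side of a start, which holds no member, and Ednrb is the gene with points of all 3 pools.

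Of 24 annotated genes of HSCR and enteric neural crest signalling, 5 had a member (20.8%, with a median of 64.9 kb of the class around the group, where all protein-coding genes had 41.0 kb). Among the ligands these were Edn3 and Pspn, whose product persephin signals through RET (pool 1, 49.6 kb downstream, 58.99, nearest gene Mllt1). Among the receptors it was Ednrb. The guidance cues were Sema3a (pool 2, 67.3 kb upstream, 71.68, nearest gene Gm10481) and Sema3d (pool 3, 87.2 kb upstream, 138.11). Ret, Gdnf, Nrtn, Artn and Gfra1 had none, and Gfra1 had an IgG peak. Edn3 and Ednrb were the members of the group with peaks of more than 1 pool.

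Of 15 annotated transcription factors of the enteric neural crest, 2 had a member (13.3%, 90.0 kb of the class). Pax6 itself had a member of pool 2 at 27.6 kb upstream of its closest start (chr2:105481152-105481697), with a score of 50.78, rank 1023 of 1032. Its first 106 bases, chr2:105481152-105481257 on the plus strand, show the TG repeat of 53 bp in capitals. Gli2, a transcription factor of the hedgehog pathway, had a member of pool 2 at 60.3 kb upstream (65.4). Sox10 and Zeb2 had none.
Pax6: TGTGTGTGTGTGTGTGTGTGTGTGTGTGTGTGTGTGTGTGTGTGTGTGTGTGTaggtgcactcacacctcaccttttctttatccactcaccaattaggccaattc

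Of 18 known PAX6 targets and partners in eye, brain and pancreas, 6 had a member (33.3%, 90.3 kb of the class), and 1, Prox1, had an IgG peak. Cryaa, a lens crystallin gene, had members of pool 2 (71.0 kb downstream, 66.75) and pool 3 (64.9 kb, 202.49, and 90.8 kb, 108.35). None held a CA or TG run over 14 bp or a repeated word. The member at 90.8 kb had Sik1 as its nearest gene and is the Sik1 member of pool 3 given above. Foxe3, a forkhead gene of the lens, had a member of pool 3 at 54.7 kb downstream (224.76, nearest gene U1, between Gm12830 and Foxd2). Wnt7b had the members given above. Six3, a homeobox gene of eye and forebrain (pool 1, 35.6 kb upstream, 54.72), Mitf, a gene of retinal pigment epithelium (pool 1, 71.2 kb downstream, 60.01), and Prox1, a homeobox gene of the lens (pool 1, 12.3 kb upstream, 74.92), had 1 each. The Prox1 member overlapped an IgG peak of score 88.88 by 497 bp.

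Of 15 annotated genes of enteric neurons, Stmn2, a growth-associated gene of neurons, had a member (pool 2, 55.2 kb upstream, 68.98, nearest gene U6). Tac1 had an IgG peak (6.67% each, 85.9 kb of the class). Of 15 genes of gut mesenchyme and muscle, 2 had a member (13.3%, 49.1 kb). They were the forkhead gene Foxf2 (pool 2, 61.5 kb downstream, 66.52, nearest gene U6) and Ptch1, the hedgehog receptor (pool 2, 17.2 kb upstream, 65.19). Of 9 genes of enteric glia none did (38.9 kb). Of the 19 genes the study named, 3 had a member, Speer5-ps1, Abi3bp and Edn3, and that group was selected on these same pools. With groups of 9 to 24 genes, a single gene moved a share by 4.17 points or more.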

How the data were processed

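Peak lists from PAX6 and IgG immunoprecipitations of mouse EPC chromatin were analysed. Per the study's methods and the submitters' processing notes, the libraries of a pool, and those of IgG, were merged, Bowtie was the aligner, mm9 the genome and MACS the peak caller. Their versions are not given in the sources used here. As score, the authors deposited the MACS p-value as 10 times its negative log10. Reads were not used here, so the depth behind a peak is unknown and intervals cover counting error only.

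Peaks on chromosomes 1 to 19 and X were placed by their centre with GENCODE M1 (37310 genes, 22380 protein-coding), and 28 PAX6 peaks elsewhere were left out of the tests. Overlap meant at least 1 bp. Motifs were searched on both strands, and genome shares came from all 426-bp windows of mm9 in steps of their width. A 50-base word was called repeated when mm9 held it at another place on either strand. Shares were compared by Fisher's exact test with Benjamini-Hochberg adjustment over 18 tests (threshold 0.05) and lists by an exact permutation test, both two-sided, and intervals are 95% Wilson intervals. Python 3.11.15, numpy 2.4.6, scipy 1.17.1, numba 0.67.0, pysam 0.24.0, matplotlib 3.10.9 and samtools 1.23.1 were used, and the scripts were tested on simulated data.

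The members, gene groups and tests were chosen with earlier results of these data known. Named genes were the nearest and flanking genes of shared regions, the nearest gene of the 5 highest scores of each list, listed genes within 100 kb of a member, genes nearest to members of at least 2 pools or to 3 or more members, and those at the limits. A few genes and sequences that it takes in are not reported here. The gene groups held 117 names, 3 of which had no entry in GENCODE M1 under that name. Tandem repeats other than CA or TG, the 50-base words and the members named for an AAC repeat or a paired domain core were added after the data were seen. Alternatives changed the score limit, chromosomes, gene types, overlap, mismatches, repeat length, gene distance and pools.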

Additional observations from a re-analysis of the deposited data

How the results depend on the processing

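Of 150 values under alternative settings, 125 were labelled the same, 25 moved and 0 reversed. Untested shares and medians had to stay within their spread, and counts within 1.5 times the main count. A tested difference was labelled the same when its sign and its side of the threshold held, whatever its size. For the permutation test, which cannot pass the threshold, only a change of sign could have altered the label. The share of the class, 33.8% over the pools, was 37.06% at a score of at least 70, 25.57% at 100 or more (1 member in pool 1), 28.01% with protein-coding genes only (28.6% in IgG) and 32.59% outside the bodies of all gene types. At a score of at least 100 in every list, IgG included, the share of members that overlapped an IgG peak was 0.2688% (mean of the pools). That limit left 11 IgG peaks of the class and 1 member of pool 1. It also removed weaker IgG peaks, such as that of score 50.09 overlapped by the Gm3452 member of pool 3 (159.13). At the same limit the share that overlapped another pool was 0 and the median width was 323.7 bp. The shared regions then numbered 0, with 3 at 70 or more. AAC members of pool 2, alternatives added after the data were seen, were 23.08% at 70 and 66.67% at 100. Listed genes with a member, 18 in all, were 10 at 70, 5 at 100 and 10 within 50 kb, and protein-coding genes, 1152 in all, were 604, 273 and 521, and 384 when only the nearest gene counted. With each pool left out, the shared regions ranged from 1 to 6, the share that overlapped another pool from 0.4379 to 2.113%, listed genes from 12 to 16 and protein-coding genes from 682 to 921. The causes were not tested. No test passed the threshold under any setting run, and motif 1 stayed below IgG. Pools minus IgG ranged from -7.61 points without pool 1 to -35.8 points at a score of at least 100. The latter value rests on few peaks, as pools had equal weight and the 1 member of pool 1 (Gm17529) had no match. IgG held 11 peaks of the class at that limit, and 24 of the 36 members of pool 2 held an AAC repeat. A growth of the difference with score cannot be read from it. No paired analysis was possible because the libraries of each pool were merged before peaks were called. Signals under a score of 50.04 and differences between libraries could not be seen.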
